A study of Arabidopsis thaliana with 12 samples.

Results

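Auxin response factors (ARFs) are the transcription factors through which auxin acts on its target genes. They bind auxin response elements in promoters, and in most of them a carboxy-terminal domain pairs with the Aux/IAA repressors, which recruit TOPLESS corepressors. When auxin is sensed by the TIR1/AFB receptors, Aux/IAA proteins are degraded and the ARF is released. In the Arabidopsis embryo, loss of ARF5 (MONOPTEROS, MP) is known to disturb the formation of the root pole and the vascular tissue, and loss of IAA12 degradation (BODENLOS) gives a like defect.

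The 10 genes described here are ARF1 (AT1G59750), ARF2 (AT5G62000), ARF3 (AT2G33860, also called ETTIN), ARF4 (AT5G60450), ARF5 (AT1G19850), ARF6 (AT1G30330), ARF7 (AT5G20730, also called NPH4), ARF8 (AT5G37020), ARF9 (AT4G23980) and ARF16 (AT4G30080). They were chosen by gene identifier, from 23 ARF genes and 32399 genes listed in all. RNA was measured in the embryo proper (32E) and the suspensor (32S) of 32-cell embryos, and in the apical cell (AC) and the basal cell (BC) of embryos whose stage is labelled as 2 cells, with 3 libraries in each of the 4 groups. All plants were of the Columbia accession, grown without any treatment, and no group carried a mutation. The 32E and AC cells belong to the apical cell lineage and the 32S and BC cells to the basal cell lineage. Embryos were freed from enzyme-treated seeds by hand, the lineages were parted with a laser microdissection system, and mRNA was amplified before sequencing. The values are FPKM, fragments scaled to transcript length and to the total of the library, so levels of genes of different length can be set side by side. As these are bulk libraries, fewer cells with a transcript and less transcript per cell cannot be told apart.

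In TAIR10.1, the RefSeq assembly used here for positions, the activators lie at chr1:6886669-6891404 (ARF5), chr1:10685822-10690988 (ARF6), chr5:7016445-7022179 (ARF7) and chr5:14629453-14634454 (ARF8). The repressors lie at chr1:21979289-21984433 (ARF1), chr5:24910191-24915395 (ARF2), chr2:14325206-14328978 (ARF3), chr5:24308255-24312784 (ARF4) and chr4:12451143-12455369 (ARF9), and the class C gene ARF16 at chr4:14703065-14706354.

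Cell labels were checked on marker genes, and 1 group had a library that stood apart. The summed FPKM of 5 apical markers was 3724 to 4462 in 32E, 518 to 1976 in 32S, 401 to 483 in AC and 306 to 327 in BC. The protoderm gene PDF1 carried most of the sum in 32E and 32S, and the other 4 apical markers summed to 427 to 517 in 32E, 14.8 to 35.4 in 32S, 401 to 483 in AC and 304 to 327 in BC. The sum of 3 basal markers was 80.6 to 107 in 32E, 776 to 887 in 32S, 7.06 to 10.4 in AC and 986 to 1007 in BC. The basal gene WOX8 was listed at 0 in 32E and lay between 388 and 452 FPKM in 32S. The apical gene WOX2 was not lower in BC (147 to 165 FPKM) than in AC (104 to 126 FPKM). ATML1 was likewise not lower in BC (69.0 to 79.1 FPKM) than in AC (58.7 to 64.8 FPKM), and PDF1 was at 0 in AC. These genes thus did not mark AC against BC in these libraries, and the reason was not tested. HAN (204 to 260 FPKM in AC, 60.3 to 82.2 FPKM in BC) and DRN were higher in AC. Among 8 endosperm markers, 5 of 96 values exceeded 1 FPKM, and the highest was 3.47 FPKM. Of the 5 values, 4 were in AC and 1 in 32S. FWA was at 1.18, 3.09 and 1.71 FPKM in AC and at 0 in BC. ARF3 was at a like level in AC, and whether endosperm RNA adds to such values was not tested here. In AC, 5 of the 8 endosperm markers were at 0 in all 3 libraries. The paper ran a tissue enrichment test on these transcriptomes and reported them free of endosperm and seed coat RNA. Of 8 seed coat markers, MUM4 was present at 17.4 to 28.3 FPKM in 32E, up to 0.03 FPKM in 32S, 5.84 to 9.49 FPKM in AC and 23.5 to 28.4 FPKM in BC, and the other 7 exceeded 1 FPKM in 1 of 84 values. In 32S, PDF1 was at 503, 1941 and 897 FPKM in replicates 1, 2 and 3. Replicate 3 of 32S lay between replicates 1 and 2 for 74.2% of the 11957 genes with a 32S mean above 5 FPKM, against 7.17% to 43.4% for each other library within its own group. In 295 genes, replicates 1 and 2 differed more than 4-fold on log2(FPKM + 1). Replicate 3 lay between them in 97.3% of these, at a median weight of 0.741 on replicate 1 (quartiles 0.696 and 0.798). The same share ran from 32.3% to 83.6% for the libraries of the other groups, over 42 to 146 genes each. Of the 10 ARFs, 7 followed this order. The independence of the 3 suspensor libraries is therefore not established by their values, and reported calls that use 32S and that were lost or gained without a single 32S library are named beside the results.

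Several ARF transcripts carry target sites of small RNAs, which set these genes apart by sequence. MicroRNA miR160 is known to guide cleavage of ARF10, ARF16 and ARF17 transcripts, miR167 that of ARF6 and ARF8, and the trans-acting small RNAs of the TAS3 transcript (tasiARFs) that of ARF2, ARF3 and ARF4. Mature sequences and sites were read from the RefSeq annotation and genome of TAIR10.1, in DNA letters, because they define the 3 groups of genes used below. Capitals in the microRNAs mark the seed, bases 2 to 8, and capitals in the TAS3 stretch mark the bases that pair in ARF2, ARF3 and ARF4 alike.
miR160a: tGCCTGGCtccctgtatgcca
miR167a: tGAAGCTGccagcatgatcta
TAS3 stretch, chr3:5862205-5862225, plus strand: tTTCTTGACCTTGtAAGACCC
The TAS3 stretch is the 21-base window of that transcript with the fewest mismatches to the 3 genes together, and 19 of its bases pair in all of them. It is a match by letters and need not begin where the small RNA itself does. The miR160b and miR160c guide strands have the same letters as miR160a, and miR167b has those of miR167a.

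The sites lie in coding exons, and capitals mark the bases that do not pair with the small RNA, G:U pairs included. The search over all 23 ARF transcripts allowed 5 mismatches and found sites in these genes, ARF10 and ARF17. ARF3 and ARF4 each hold a second TAS3 site with 2 unpaired bases.
ARF16, miR160 site, chr4:14704141-14704161, minus strand, exon 3 of 4: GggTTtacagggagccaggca
ARF8, miR167 site, chr5:14633841-14633861, plus strand, exon 13 of 14: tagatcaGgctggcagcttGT
ARF6, miR167 site, chr1:10686478-10686498, minus strand, exon 13 of 14: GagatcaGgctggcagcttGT
ARF2, TAS3 site, chr5:24913262-24913282, plus strand, exon 12 of 15: gggtcttGcaaggtcaagaaT
ARF3, TAS3 site, chr2:14325941-14325961, minus strand, exon 10 of 10: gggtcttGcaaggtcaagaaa
ARF4, TAS3 site, chr5:24309507-24309527, minus strand, exon 10 of 12: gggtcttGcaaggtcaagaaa
The ARF3 and ARF4 sites are identical over 21 bases, ARF2 has 2 unpaired bases, ARF8 and ARF16 have 3 each, and ARF6 has 4. ARF1, ARF5, ARF7 and ARF9 held no such site.

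ARF5, which activates genes of vascular and root pole formation, had the highest mean of the 10 genes in 32E and was called in opposite directions between the lineages at the 2 stages. Its level was 118, 148 and 186 FPKM in 32E, against 33.1, 47.3 and 37.6 FPKM in 32S, and every 32E library lay above every 32S library. At the earlier stage it was at 10.3, 7.66 and 13.5 FPKM in AC, against 45.6, 38.4 and 41.5 FPKM in BC, so that here the basal cell was the higher of the pair. The mean in 32E was 3.83 times that in 32S and 14.4 times that in AC, and the mean in BC was 4.0 times that in AC. In 32E, 97.1% of all listed genes had a lower mean than ARF5, and in AC 69.9%.

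**Figure D1:**
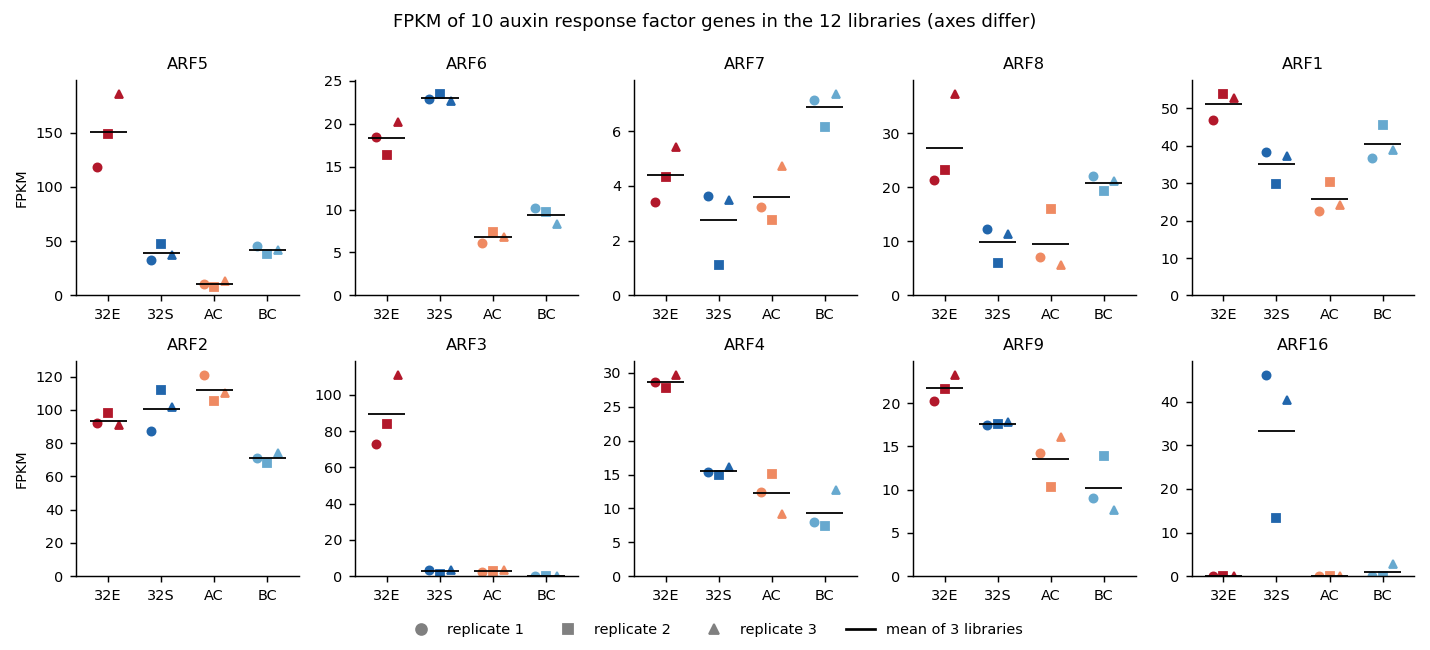
FPKM of each of the 10 ARF genes in the 12 libraries, with 1 panel per gene and its own linear axis from 0. Points are libraries, symbols are replicate numbers and bars are the means of 3 libraries. ARF5 is highest in 32E (118 to 186 FPKM) and lowest in AC (7.66 to 13.5 FPKM), ARF3 stands out in 32E (72.6 to 111 FPKM) and ARF16 in 32S (13.3 to 46.2 FPKM).

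All comparisons were fitted with limma on log2(FPKM + 1) over 17060 genes with more than 1 FPKM in at least 3 libraries, and a gene was called at a Benjamini-Hochberg adjusted p under 0.01 with at least a 2-fold change on that scale. All 10 ARFs passed the filter, ARF16 through its 32S libraries and a single BC library. For ARF5 the log2 difference was 1.90 ± 0.21 (SE) between 32E and 32S (adjusted p = 7.62e-06), -1.93 ± 0.21 between AC and BC (adjusted p = 1.21e-05) and 3.73 ± 0.21 between 32E and AC (adjusted p = 1.07e-07). Between 32S and BC it was -0.10 (95% interval -0.56 to 0.37, adjusted p = 0.71), so a 2-fold change in either direction lies outside the interval, and over 20 alternatives it ran from -0.24 to 0.18. The lineage difference at the later stage minus that at the earlier stage, called the interaction below, was 3.83 ± 0.30 (adjusted p = 6.06e-07). ARF5 overlaps AT1G19860 on the opposite strand, and since the cDNA kit does not mark strand, reads from their shared part cannot be told apart.

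The other activating ARFs were lower than ARF5 in 32E. ARF8, an activator that acts together with ARF6 in flower maturation, was at 21.4, 23.2 and 37.3 FPKM in 32E, against 12.3, 6.0 and 11.3 FPKM in 32S. In AC it was at 7.09, 16.0 and 5.68 FPKM, against 22.2, 19.3 and 21.1 FPKM in BC. As with ARF5, 32E lay above 32S and AC lay below BC without overlap, although replicate 2 of AC came close to BC. The log2 difference was 1.39 ± 0.36 between 32E and 32S (adjusted p = 0.00464), 1.5 ± 0.36 between 32E and AC (adjusted p = 0.00447) and 2.56 ± 0.51 for the interaction (adjusted p = 8.42e-04). Both of the first 2 calls were close to the threshold, and that between 32E and 32S did not pass without 32E replicate 2 (adjusted p = 0.010), 32E replicate 3 (adjusted p = 0.0243) or 32S replicate 2 (adjusted p = 0.0189). The call between 32E and AC did not pass without 32E replicate 2 or 3 or AC replicate 1 or 3 (adjusted p = 0.0108 to 0.0229). The differences of -1.17 between AC and BC (adjusted p = 0.0144) and -1.06 between 32S and BC (adjusted p = 0.0193) missed the threshold, but the first passed without AC replicate 2 (adjusted p = 0.00127) or 32S replicate 2 (adjusted p = 0.00805), and the second passed without AC replicate 2 (adjusted p = 0.00490). MUM4, 1 of the 8 seed coat markers, had the same order of groups in part, with its 32E and BC values above those in 32S and AC. The other 7 seed coat markers exceeded 1 FPKM in 1 of 84 values. Whether seed coat RNA adds to the ARF8 values was not tested.

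ARF6 differed by stage. It was at 18.4, 16.3 and 20.2 FPKM in 32E, 22.9, 23.5 and 22.6 FPKM in 32S, 6.12, 7.43 and 6.84 FPKM in AC and 10.2, 9.72 and 8.33 FPKM in BC, and every library of the 32-cell stage lay above every library of the earlier stage. It rose by 1.31 ± 0.16 on the log2 scale in 32E relative to AC (adjusted p = 3.26e-05) and by 1.21 ± 0.16 in 32S relative to BC (adjusted p = 2.36e-05). The lineage differences of -0.32 (32E against 32S) and -0.42 (AC against BC) were not called, and the interaction was 0.10 (95% interval -0.38 to 0.58). ARF6 and ARF8 thus share a miR167 site and differ in their order over the groups.

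ARF7, an activator known for phototropism and lateral root formation, was the lowest activator among the 10 genes. It was at 3.40, 4.34 and 5.43 FPKM in 32E, 3.62, 1.13 and 3.47 FPKM in 32S, 3.24, 2.76 and 4.74 FPKM in AC and 7.12, 6.14 and 7.36 FPKM in BC. Its BC libraries were the highest of all. ARF7 fell by 1.15 ± 0.31 on the log2 scale in 32S relative to BC (adjusted p = 0.00583), a call that was lost without 32S replicate 2, where the difference was -0.79 (adjusted p = 0.0159), and without any BC replicate (adjusted p = 0.0115 to 0.0198). ARF7 overlaps AT5G20720 on the opposite strand, so these low values may hold reads of either gene.

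Among the repressing ARFs, ARF3, which acts in organ polarity and the gynoecium, differed most. It was at 72.6, 84.0 and 111 FPKM in 32E, against 3.63, 1.51 and 3.43 FPKM in 32S. In AC it was at 2.26, 2.65 and 3.49 FPKM, and all 3 BC libraries were listed at 0. The mean in 32E was 31.3 times that in 32S and 31.9 times that in AC, with no overlap. On the log2 scale ARF3 rose by 4.58 ± 0.27 in 32E relative to 32S (adjusted p = 3.17e-08) and by 4.56 ± 0.27 relative to AC (adjusted p = 1.66e-07). It was also called higher in AC (adjusted p = 9.34e-05) and in 32S (adjusted p = 6.33e-05) than in BC, but these comparisons are of a few FPKM with a group listed at 0, and the fitted sizes of 1.91 and 1.90 depend on the pseudocount. The interaction was 2.67 ± 0.39 (adjusted p = 8.51e-05) and, at a pseudocount of 0.1, 0.15 (adjusted p = 0.82).

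ARF4, which acts with ARF3 in organ polarity, had the same group on top at a far smaller size. It was at 28.6, 27.8 and 29.7 FPKM in 32E, 15.3, 15.0 and 16.1 FPKM in 32S, 12.4, 15.0 and 9.14 FPKM in AC and 7.98, 7.36 and 12.7 FPKM in BC. The 32E libraries varied by less than 2 FPKM and all exceeded those of the other groups. ARF4 rose by 1.19 ± 0.22 in 32E relative to AC (adjusted p = 7.52e-04), and the difference of 0.85 ± 0.22 between 32E and 32S (adjusted p = 0.00429) was below the 2-fold limit. Over the 12 libraries, ARF3 and ARF4 had the highest Pearson r of any pair among the 10 genes (0.91 on log2(FPKM + 1)), as a description of libraries that share groups.

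ARF2, a repressor of growth and of seed size, was the most abundant of the 10 genes in every group but 32E, where it came after ARF5. Its levels were 92.0, 97.9 and 90.6 FPKM in 32E, 87.1, 112 and 102 FPKM in 32S, 121, 105 and 110 FPKM in AC and 71.3, 68.0 and 74.0 FPKM in BC. The BC libraries were the lowest. No ARF2 difference reached 2-fold. The log2 difference between AC and BC was 0.65 ± 0.10 (adjusted p = 1.95e-04), that between 32S and BC 0.48 ± 0.10 (adjusted p = 0.00114), and that between 32E and 32S -0.09 (95% interval -0.32 to 0.13).

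ARF1, a repressor close to ARF2, was at 47.0, 53.8 and 52.7 FPKM in 32E and at 38.4, 29.8 and 37.3 FPKM in 32S. In AC it was at 22.6, 30.4 and 24.2 FPKM, against 36.8, 45.5 and 38.8 FPKM in BC. Like ARF5, it was higher in 32E than in 32S and lower in AC than in BC, without overlap, but each difference was under 2-fold: 0.54 ± 0.15 (adjusted p = 0.00659) and -0.64 ± 0.15 (adjusted p = 0.00264). The interaction of 1.17 ± 0.21 was called (adjusted p = 3.62e-04). Between 32E and AC the difference was 0.97 ± 0.15 (adjusted p = 1.94e-04), just under the 2-fold limit, and it passed that limit without 32E replicate 1 (1.03) or AC replicate 2 (1.10) and with median-ratio scaling between libraries (1.11). ARF1 overlaps AT1G59760 on the opposite strand.

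ARF9, a repressor known from work on Arabidopsis embryos to act in the suspensor, was at 20.2, 21.6 and 23.3 FPKM in 32E and at 17.4, 17.5 and 17.8 FPKM in 32S. At the earlier stage it was at 14.2, 10.3 and 16.1 FPKM in AC and 9.0, 13.9 and 7.65 FPKM in BC, with overlap between those groups. None of its 4 differences was called. The largest was 0.77 ± 0.22 between 32S and BC (adjusted p = 0.00733), under the 2-fold limit, and median-ratio scaling took it to 1.04 (adjusted p = 0.00109). All 3 suspensor libraries lay below those of the embryo proper, by a difference of 0.29 (95% interval -0.19 to 0.76).

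ARF16, a class C ARF known for root cap formation together with ARF10, was present in the suspensor. It was listed at 0, 0.03 and 0 FPKM in 32E, at 46.2, 13.3 and 40.4 FPKM in 32S, at 0 in all AC libraries and at 0, 0 and 2.73 FPKM in BC. Its spread in 32S was the widest of the 10 genes relative to the mean (33.3 ± 17.6 FPKM, SD, n = 3), and replicate 2, in which PDF1 was highest, was the lowest. ARF16 was tested because its 32S libraries passed the filter, so its calls (lower in 32E than in 32S, higher in 32S than in BC, negative in the interaction) describe that choice and are given without support from their p-values. With the other groups at or near 0, the fitted sizes of -4.91, 4.29 and -4.28 depend on the pseudocount and are no estimate of a fold change.

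**Figure D2:**
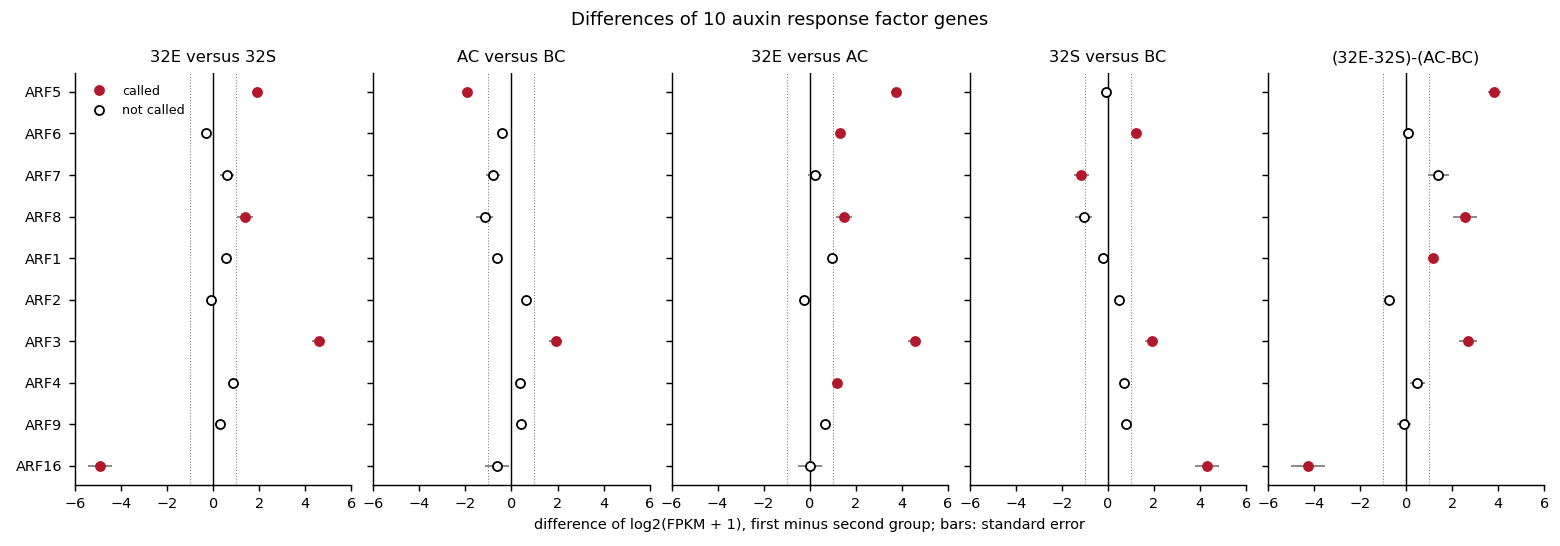
Fitted differences of log2(FPKM + 1) for the 10 ARF genes in the 4 comparisons and the interaction, first group minus second, with standard errors as bars and dotted lines at a 2-fold change. Filled points are called. ARF5 lies at 1.90 for 32E against 32S and at -1.93 for AC against BC, while its point for 32S against BC is at -0.10.

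Counted over the 10 genes, the change between stages in the apical lineage had the most calls in 1 direction. Between 32E and AC, 5 ARFs were called higher (ARF3, ARF4, ARF5, ARF6 and ARF8) and 0 lower, where 13.1% of all tested genes were called higher and 14.3% lower. The median difference of the 10 genes was 1.08, against -0.01 for all tested genes. Between 32S and BC, 3 were higher (ARF3, ARF6 and ARF16) and ARF7 was lower, beside 25.3% and 26.7% of all tested genes, with a median of 0.60 against 0.00. ARF16 entered the test through 32S and adds nothing to that count. The count between 32E and AC is 5 of 10 beside a background of 13.1%, whereas 3 of 10 between 32S and BC is near its background. The first count fell to 3 at a pseudocount of 5. Of the 5 other ARFs tested, 3 were called higher in 32E than in AC, 2 of them with no AC library above 1 FPKM. The other 2, ARF17 and ARF18, were called lower. The 10 genes were chosen with earlier results known, so the count describes this list only. Stage also went with the material per library, pooled cells in AC and BC and their many-celled descendants in 32E and 32S. Genes above 1 FPKM numbered 13034 to 13784 in BC, 13555 to 14562 in AC, 14788 to 14963 in 32S and 14796 to 15322 in 32E. How far this bears on the stage calls and on values listed at 0 was not tested.

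Between 32E and 32S, 3 ARFs were called higher (ARF3, ARF5 and ARF8) and ARF16 was called lower, beside 23.8% and 22.6% of all tested genes. These counts are also near their background. The median difference of the 10 genes was 0.56, against 0.05 for all. Between AC and BC, ARF3 was called higher and ARF5 lower, beside 19.0% and 18.4%, with a median of -0.52 against 0.00. The interaction was called positive for 4 genes (ARF1, ARF3, ARF5 and ARF8) and negative for ARF16, beside 27.0% and 25.8% of all genes. The calls of all 5 comparisons were the same for the 10 genes without 32S replicate 1 and without 32S replicate 3. Without 32S replicate 2, ARF8 was no longer called between 32E and 32S, ARF7 was no longer called between 32S and BC, and ARF8 was called between AC and BC. Comparisons that share a group are not independent of each other.

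The order of levels differed between groups. In 32E it ran from ARF5 (151 ± 33.8 FPKM, SD, n = 3) over ARF2 (93.5 ± 3.84) and ARF3 (89.3 ± 19.8), whose ranges overlapped, to ARF1, ARF4, ARF8, ARF9, ARF6, ARF7 and ARF16. The neighbours ARF4, ARF8 and ARF9 also overlapped. In 32S it ran from ARF2 (100 ± 12.5 FPKM, SD, n = 3) to ARF5, ARF1, ARF16 and ARF6, which overlapped from each to the next, and then ARF9, ARF4, ARF8, ARF3 and ARF7, of which ARF3 and ARF7 overlapped. In AC, ARF2 (112 ± 8.17) stood apart from ARF1 (25.7 ± 4.11), and ARF9, ARF4, ARF5, ARF8 and ARF6 followed with overlapping neighbours. In BC, ARF2 (71.1 ± 2.99) came before ARF5 (41.8 ± 3.59) and ARF1 (40.4 ± 4.52), which overlapped, and ARF8 came next with 20.9 ± 1.43 FPKM.

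Shares of the summed FPKM of all 23 ARF genes do not depend on the scaling of a library. The activators ARF5, ARF6, ARF7, ARF8 and ARF19 made up 32.1% to 38.8% of it in 32E, 20.1% to 23.2% in 32S, 6.39% to 8.04% in AC and 22.5% to 28.0% in BC. AC thus had the lowest activator share, and its range touched that of no other group. ARF5 alone took 23.4% to 28.8% in 32E, 8.85% to 13.8% in 32S, 1.82% to 3.38% in AC and 11.7% to 15.0% in BC. Class C genes took 0.870% to 1.83% in 32E, 15.9% to 26.2% in 32S, 7.0% to 11.3% in AC and 5.64% to 7.54% in BC. In the suspensor this share was mostly ARF10 and ARF16, and at the earlier stage it was mostly ARF17.

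**Figure D3:**
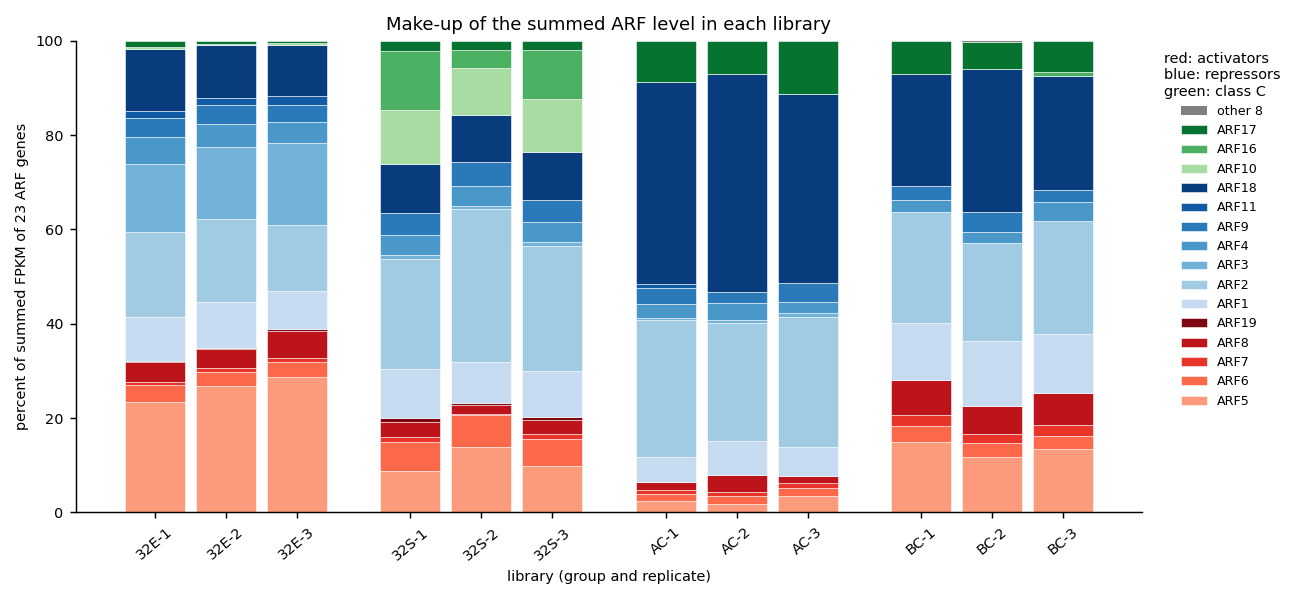
Share of each ARF gene in the summed FPKM of 23 ARF genes, in percent, with 1 stacked bar per library. Activators are red, repressors blue, class C genes green and the 8 genes near 0 grey. Activators make up 32.1% to 38.8% in 32E and 6.39% to 8.04% in AC, and class C genes 15.9% to 26.2% in 32S.

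The 10 genes made up 83.4% to 86.2% of the summed ARF level in 32E, 74.9% to 77.7% in 32S, 46.8% to 48.7% in AC and 63.7% to 69.3% in BC. Most of the remainder in AC was ARF18 (AT3G61830), a repressor, at 179, 195 and 159 FPKM, which exceeded ARF2 there. ARF18 was at 65.7, 62.7 and 70.2 FPKM in 32E, 38.8, 33.8 and 39.1 FPKM in 32S and 71.9, 99.3 and 74.7 FPKM in BC. It fell by 1.41 ± 0.13 on the log2 scale in 32E relative to AC (adjusted p = 4.89e-06) and by 1.11 ± 0.13 in 32S relative to BC (adjusted p = 1.22e-05), and rose by 1.12 ± 0.13 in AC relative to BC (adjusted p = 2.01e-05). Of the 13 other ARF genes, 5 passed the filter. The repressor ARF11 was at 8.26, 8.18 and 11.7 FPKM in 32E, was listed at 0 in 32S and BC, and was at 3.53, 0 and 0 FPKM in AC. ARF19, the close relative of ARF7, did not exceed 3.04 FPKM in any library. The 8 others (ARF12 to ARF15 and ARF20 to ARF23) are close relatives of each other, and none exceeded 1.18 FPKM. How reads were assigned among them was not tested.

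The 3 genes with a miR160 site did not share a pattern. ARF10 was at 2.23, 1.34 and 2.19 FPKM in 32E, against 43.4, 34.5 and 43.0 FPKM in 32S, and was listed at up to 0.02 FPKM in AC and at 0 in BC. ARF16 had the same group on top. ARF17 was at 7.04, 3.51 and 3.43 FPKM in 32E, 8.35, 6.67 and 7.24 FPKM in 32S, 36.2, 29.5 and 45.0 FPKM in AC and 21.2, 18.4 and 20.6 FPKM in BC. It fell by 2.78 ± 0.25 on the log2 scale in 32E relative to AC (adjusted p = 3.21e-06) and by 1.33 ± 0.25 in 32S relative to BC (adjusted p = 4.33e-04). ARF17 was thus highest in AC, where ARF10 and ARF16 were at or near 0. The ARF17 site pairs with miR160 at all but 1 base.

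Mature small RNAs were not measured in these libraries. Of the 9 precursor loci of miR160, miR167 and miR390, 8 were listed at 0 in all 12 libraries, and MIR167D was at 0.04 FPKM in 1 library of 32E and at 0 in the other 11. Whether these libraries can capture such precursors was not tested, so a listed 0 is not read as absence. The TAS3 transcript (AT3G17185), the source of tasiARFs, was at 30.0, 15.6 and 29.2 FPKM in 32E, 0.87, 0.16 and 0.47 FPKM in 32S and 0 in AC and BC, so that it was highest in the group in which ARF3 and ARF4 were highest. ARF2, which also has a TAS3 site, was not highest there, with means of 93.5 FPKM in 32E, 100 FPKM in 32S, 112 FPKM in AC and 71.1 FPKM in BC. AGO7, the Argonaute that acts with miR390 on TAS3, had another order, at 1.53, 2.63 and 1.84 FPKM in 32E, 9.90, 20.0 and 14.4 FPKM in 32S and 0 in AC and BC. Of the 8 genes of this list, which also holds RDR6, SGS3, DCL4, AGO1, AGO10 and DCL1, 3 were called higher and 1 lower between 32E and 32S, beside 23.8% and 22.6% of all tested genes, and 1 of the 3, TAS3, entered the test through 32E. Of the others, RDR6 was no longer called without 32S replicate 2 (0.97), and AGO1 was called without 32S replicate 1 (1.03). AGO10, an Argonaute of the shoot apex, was at 75.8, 78.2 and 77.6 FPKM in 32E, against 3.77, 3.02 and 2.89 FPKM in 32S.

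**Figure D4:**
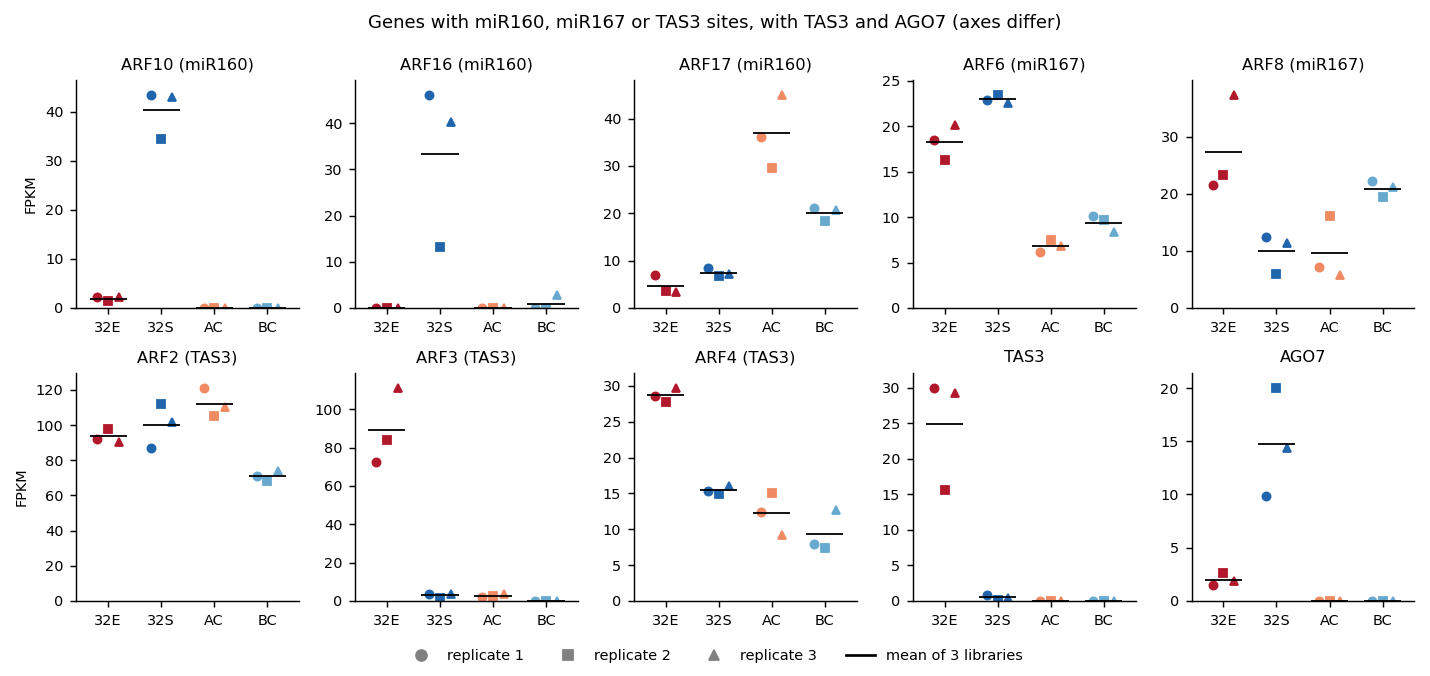
FPKM of the ARF genes with a miR160, miR167 or TAS3 site, and of TAS3 and AGO7, in the 12 libraries, with linear axes from 0 that differ between panels. Bars are means of 3 libraries. ARF10 (34.5 to 43.4 FPKM) and ARF16 (13.3 to 46.2 FPKM) are high in 32S, ARF17 is highest in AC (29.5 to 45.0 FPKM), and TAS3 is highest in 32E (15.6 to 30.0 FPKM).

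IAA12 (BODENLOS) and IAA13, the repressors known to hold ARF5 in the embryo, were read beside it. IAA12 was at 54.5, 61.0 and 46.3 FPKM in 32E, 21.2, 19.8 and 20.9 FPKM in 32S, 28.0, 25.1 and 18.4 FPKM in AC and 0, 0 and 1.40 FPKM in BC. IAA13 was at 34.6, 42.6 and 48.6 FPKM in 32E, at 12.9, 13.1 and 11.5 FPKM in 32S, at up to 0.04 FPKM in AC and at 0 in BC. In BC, ARF5 RNA was therefore present with IAA12 and IAA13 RNA at or near 0. Other Aux/IAA RNA was present there, with IAA9 at 220, 206 and 204 FPKM and IAA8 at 122, 129 and 153 FPKM in BC. The ratio of ARF5 to IAA12 plus IAA13 was 1.33, 1.43 and 1.96 in 32E, 0.971, 1.44 and 1.16 in 32S and 0.366, 0.305 and 0.732 in AC, and it was not formed for BC, where 2 libraries had neither repressor. Every AC ratio lay below every ratio of 32E and 32S.

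Known targets of ARF5 were read in the same libraries, as a description. Of the 5 listed, TMO5 and TMO6 exceeded 1 FPKM in no library outside 32E and so passed the filter through that group. TMO5, a bHLH factor of vascular cell division, was at 38.4, 54.6 and 49.9 FPKM in 32E and listed at 0 in all other libraries. TMO6, a Dof factor, was at 11.5, 18.7 and 19.6 FPKM in 32E, with no more than 0.08 FPKM elsewhere. TMO3, a cytokinin response factor, was at 49.2, 57.7 and 63.4 FPKM in 32E, 1.24, 3.68 and 2.01 FPKM in 32S, 3.48, 22.9 and 0 FPKM in AC and 0 in BC. DRN, an AP2 factor of the shoot apex and also among the apical markers, was at 100, 64.4 and 55.6 FPKM in 32E, against 0.86, 0.92 and 0.98 FPKM in 32S. It was at 60.3, 35.5 and 22.9 FPKM in AC, against 10.3, 8.61 and 9.19 FPKM in BC, which is the reverse of the ARF5 order at that stage. TMO7 was listed at 0 in all libraries.

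**Figure D5:**
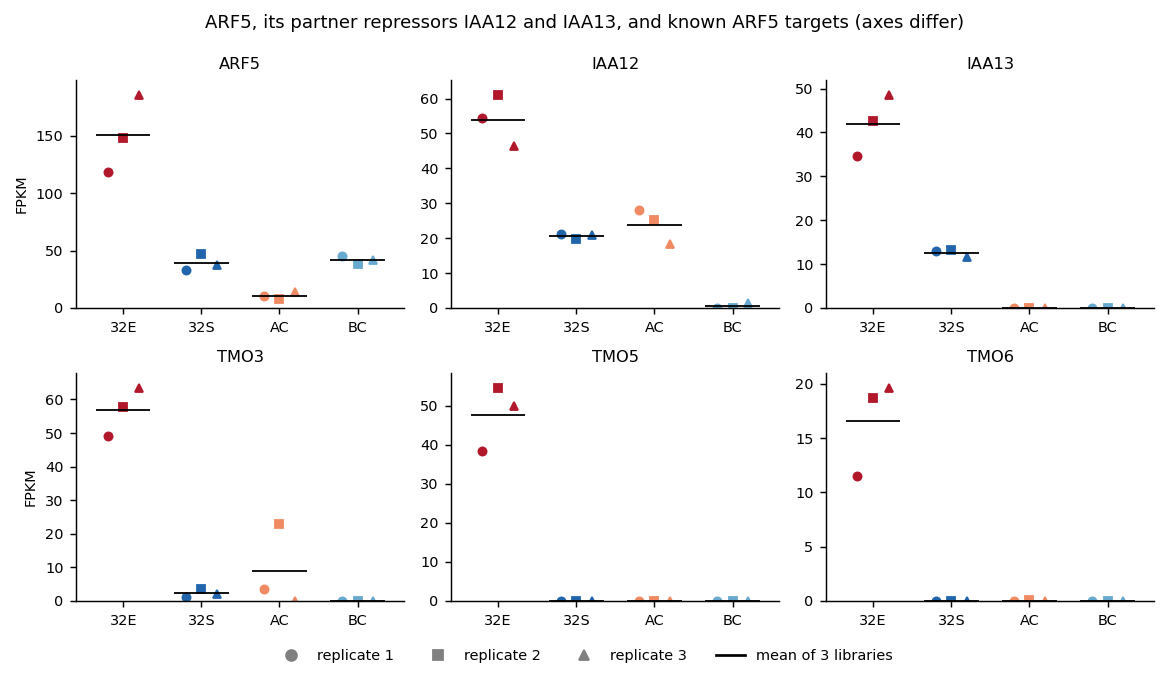
FPKM of ARF5, of its partner repressors IAA12 and IAA13 and of its targets TMO3, TMO5 and TMO6 in the 12 libraries, with linear axes from 0 that differ between panels. Bars are means of 3 libraries. ARF5 is at 38.4 to 45.6 FPKM in BC, where IAA12 is at 0 to 1.40 FPKM and the targets are at 0.

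Aux/IAA genes, the partners of ARFs, were called in both lineages between stages. Of 29 genes, 18 passed the filter. Between 32E and AC, 13 of the 18 tested were called higher and 3 lower, beside 13.1% and 14.3% of all tested genes. However, 10 of the 13 had no AC library above 1 FPKM and 2 of the 3 had no 32E library above 1 FPKM. Between 32S and BC, 11 were higher and 2 lower, beside 25.3% and 26.7%, and 7 of the 11 had no BC library above 1 FPKM. Such genes entered the test through the group in which they are high, so nothing is read from these counts. IAA18 was at 180, 204 and 195 FPKM in 32E and at no more than 0.03 FPKM in any other library. IAA30 was at 160, 68.5 and 105 FPKM in 32E and 22.2, 100 and 41.0 FPKM in 32S, and IAA1 at 88.0, 47.4 and 80.8 FPKM in 32E and 4.69, 79.5 and 23.4 FPKM in 32S, both with at most 0.08 FPKM in AC and BC. In 32S, both were highest in replicate 2. Between 32E and 32S, 7 were higher and 3 lower, beside 23.8% and 22.6%, and between AC and BC, 4 were higher and 1 lower, beside 19.0% and 18.4%. Here 4 of the 7 had no 32S library above 1 FPKM, and 1 of the 3 had no 32E library above it. Likewise 2 of the 4 had no BC library above 1 FPKM, and the 1 lower gene had no AC library above it. Nothing is read from these counts either. IAA1 and IAA30 were not called between 32E and 32S but were without 32S replicate 2 (2.58 and 1.76), and IAA11 lost its call without 32S replicate 1 (-0.98) or 32S replicate 3 (-1.07).

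TIR1/AFB receptors bind auxin, and TOPLESS corepressors silence ARF targets. Of the 6 receptors, TIR1 (24.6, 29.8 and 33.1 FPKM in 32E, against 8.62, 4.94 and 7.29 FPKM in 32S) and AFB5 (21.2, 22.2 and 24.9 FPKM in 32E, against 1.62, 1.81 and 1.63 FPKM in 32S) were called higher in 32E than in 32S, where 23.8% of all tested genes were. Of the receptors, AFB1, at up to 3.59 FPKM and tested because of its AC libraries, was the 1 called between AC and BC. Of the 5 corepressors, TPL (47.7, 52.1 and 51.2 FPKM in 32E, against 17.1, 20.5 and 18.9 FPKM in 32S) and TPR1 (26.6, 21.5 and 22.6 FPKM in 32E, against 5.04, 1.39 and 4.23 FPKM in 32S) were higher in 32E. Between 32S and BC, 3 corepressors were called lower and TPR4 higher, beside 26.7% and 25.3%. Without 32S replicate 1 or 3, TPR4 was no longer called (0.99 and 1.02, adjusted p = 0.0125 and 0.0132), and without 32S replicate 1 neither was TPR2, which came just under the 2-fold limit, while the receptor AFB3 was called (-1.34). Leaving out 32S libraries for these lists was added after seeing the data.

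The 5 genes whose level was most like that of ARF5, by Pearson r of log2(FPKM + 1) over the 12 libraries among 13287 genes with a group mean of at least 10 FPKM, were AT3G43670 (r = 0.975), AT1G30440 (r = 0.975), AT5G23540 (r = 0.971), AT5G62960 (r = 0.956) and AT1G18745 (r = 0.956), a noncoding RNA. The means of AT1G30440 were 93.4 FPKM in 32E, 25.6 FPKM in 32S, 8.61 FPKM in AC and 24.9 FPKM in BC. The libraries fall into 4 groups, so the r values are a description. Within the 10 genes, ARF1 had the highest r with ARF5 (0.87), and the lowest r of any pair was that of ARF2 with ARF7 (-0.74).

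In the promoters, from 250 bases before to 50 bases after the start of each gene in TAIR10.1, the auxin response element core TGTCTC was found on either strand in 1 of the 10 genes (ARF3), where 14.2% of 27443 promoters hold it. The variant TGTCGG was found in 1 of the 10 genes (ARF7), where 5.12% of promoters hold it. These matches are letters within a short window.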

How the data were processed

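Polyadenylated RNA of 12 samples was amplified with a SMART-Seq kit and sequenced. The deposited values are FPKM, which the authors computed with RSEM, per gene and rounded to 2 decimals, on the TAIR10 build. The study's methods name Cutadapt and Bowtie 2 before RSEM, and the submitters' processing notes name TopHat2 2.1.1, so the aligner is not settled. The files hold no counts. The study reports read pairs for each library, but fragments per gene were not worked out from them, and no counting interval or detection limit is given. No scaling between libraries is named, and FPKM sums ran from 833418 to 955228.

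Samples were grouped by their labels. A free-text label gives cell numbers other than 32 for some 32E and 32S replicates, and the stage field, which gives 32, was used. Values were tested as log2(FPKM + 1) with limma 3.58.1 in R 4.3.3, in a model of all 4 groups with a trended prior (8 residual degrees of freedom), and p was adjusted by Benjamini and Hochberg over 17060 genes. The fit was tested on simulated data. The thresholds are those of the study's methods. The 95% intervals come from the fit. The p-values set a difference between groups against the spread of libraries within groups, pooled over the 4 groups and moderated by the prior. Tables, sequences and figures were made with pandas 2.3.3 on numpy 2.4.6, under python 3.11.15, with matplotlib 3.10.9, from RefSeq's TAIR10.1, the longest transcript standing for each gene.

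The ARF genes and the lists were chosen with earlier results of these data known. By rule, the text names all 10 ARFs, every other ARF that passed the filter, the called list genes of largest change (up to 3 a list and comparison, of which some are left as counts) and the 5 genes most like ARF5. TMO7, IAA8, IAA9, IAA11, IAA13, AFB3, TPR2, AGO1, SGS3, DCL4, MIR167D, the remaining markers, AT1G59760, AT1G19860 and AT5G20720 are named outside that rule. Alternatives were pseudocounts of 0.1 and 5, no filter, a filter at 5 FPKM, median-ratio and TPM scaling, a fit of the 2 groups compared, a replicate block and leaving out each library, and, added after seeing the data, leaving out each 32S library for the other listed genes.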

Additional observations from a re-analysis of the deposited data

Results flagged for a closer look

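For 5 ARFs the lineage difference at the 32-cell stage differed from that at the earlier stage by the interaction test in limma, in log2(FPKM + 1) as 32E minus 32S less AC minus BC. ARF5 had 3.83 (adjusted p = 6.06e-07), with the embryo proper above the suspensor and the apical cell below the basal cell in all libraries. ARF8 had 2.56 (adjusted p = 8.42e-04) and ARF1 had 1.17 (adjusted p = 3.62e-04), with the same order of groups. ARF3 had 2.67 (adjusted p = 8.51e-05), being higher in the apical lineage at both stages. With BC listed at 0, that value depends on the pseudocount, and at 0.1 it was 0.15 (adjusted p = 0.82). ARF16 had -4.28, being present in 32S and near 0 in the other groups, and it was tested because of its 32S libraries, so that value is a description. Such a test was positive or negative for 27.0% and 25.8% of all genes.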

How the results depend on the processing

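Of 988 alternative values of single ARFs, 956 kept their side of the threshold, 24 lost and 8 gained the call, and 0 called values changed sign. Of the values not called, 6 changed sign (4 results: ARF1 and ARF5 between 32S and BC, ARF6 and ARF9 in the interaction). For the other listed genes, leaving out 1 library of 32S, an alternative chosen after seeing the data, ended 2 to 6 calls, added 0 to 4 and reversed 0, over 138 values for each library left out. At a pseudocount of 5 the number of ARFs called was 1 between AC and BC (ARF3 lost), 3 between 32E and AC (ARF4 and ARF6 lost, with differences of 0.98 for each) and 1 between 32S and BC (ARF3, ARF6 and ARF7 lost), and all genes called between 32E and AC came to 2852, against 4679. This pseudocount shrinks low values by construction. At a pseudocount of 0.1, ARF3 lost the interaction and ARF7 its call between 32S and BC (adjusted p = 0.0127). With 1 library left out, the ARFs called were 3 to 4 between 32E and 32S, 2 to 3 between AC and BC, 4 to 6 between 32E and AC, 3 to 5 between 32S and BC and 5 in each case for the interaction. Median-ratio scaling shifted the median of all genes by 0.141 between 32S and BC and by -0.119 in the interaction, where it ended the call of ARF7 between 32S and BC (-0.92, adjusted p = 0.0161). The fit of 2 groups ended the calls of ARF8 between 32E and AC (adjusted p = 0.0108) and of ARF7 between 32S and BC (adjusted p = 0.0167) and called ARF8 between 32S and BC (adjusted p = 0.00997).

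Samples with the same replicate number did not deviate together (r from -0.125 to 0.066 over 18 pairs), so the values show no pairing by number. Whether samples with the same number came from the same embryos cannot be told from these values. With the replicate block, 3 ARFs were called between 32E and 32S, 2 between AC and BC, 4 between 32E and AC, 4 between 32S and BC and 5 in the interaction, ARF8 being lost from the comparisons of 32E with 32S (adjusted p = 0.0110) and with AC (adjusted p = 0.0109). With no counts at hand, the depth behind low values such as those of ARF7 was not worked out.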
